A study of Mus musculus with 2 samples.

Results

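The mouse genome names many of its zinc finger genes Zfp followed by a number. In the table of TPM values (transcript abundance per length, scaled to one fixed total in each library) analysed here, 251 of 11262 rows carry such a name, and the 155 of them with at least 5 TPM in the second polar body (PB2) or in the zygote are described. PB2 is the small cell that a fertilised egg expels when it completes meiosis. The 2 libraries, 1 of PB2 and 1 of zygotes, came from untreated embryos of the strain C57BL/6 (C57BL/6N in the methods) at the late 1-cell stage, whose zona pellucida was removed and whose PB2 was split off by trypsin and pipetting, so the zygotes are those that had lost their PB2. Polyadenylated RNA was amplified as full-length cDNA with a single-cell kit, and many PB2s and zygotes were collected. With 1 library of each, the spread between samples is unknown, no test was run, and every difference below is a description of these 2 libraries. TPM carry no read numbers, so the depth is unknown, and a lower TPM in PB2 cannot be told apart from a larger share of other transcripts there.

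Most numbered Zfp genes encode proteins with tandem C2H2 zinc fingers, small folds in which a pair of cysteines and a pair of histidines hold a zinc ion and which read DNA bases in a row. Many also carry a KRAB box, which recruits the corepressor TRIM28 and with it the histone methyltransferase SETDB1, a pathway best known for silencing retroelements and for keeping methylation at imprinted loci in the early embryo. The KRAB genes multiplied by local duplication and lie in clusters, whose members resemble each other in sequence.

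One finger each from 3 genes with far higher TPM in the zygote and from 3 with far higher TPM in PB2 is shown, because the genes described below differ in base composition. Capitals mark the codons of both cysteines and both histidines. Each stretch is 63 bases of a coding exon, read from GENCODE M21 on GRCm38, and is the finger closest to the median GC content of the gene's fingers. The zygote examples lie at chr7:42580389-42580451 (minus strand, Zfp977), chr10:81721079-81721141 (plus strand, Zfp433) and chr13:74480715-74480777 (minus strand, Zfp825).
Zfp977: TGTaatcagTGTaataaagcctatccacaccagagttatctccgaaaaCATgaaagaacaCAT
Zfp433: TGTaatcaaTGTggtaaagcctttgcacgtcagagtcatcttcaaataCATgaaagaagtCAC
Zfp825: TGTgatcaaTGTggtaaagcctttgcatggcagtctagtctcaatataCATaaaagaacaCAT
The PB2 examples lie at chr7:80082055-80082117 (Zfp710), chr7:127235611-127235673 (Zfp553) and chr7:25080494-25080556 (Zfp574), all on the plus strand.
Zfp710: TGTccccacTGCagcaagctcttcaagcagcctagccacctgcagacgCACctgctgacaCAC
Zfp553: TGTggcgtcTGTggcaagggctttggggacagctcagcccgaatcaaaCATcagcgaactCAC
Zfp574: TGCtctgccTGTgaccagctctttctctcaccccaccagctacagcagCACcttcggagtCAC
The 3 zygote fingers have a GC content of 36.5%, 38.1% and 36.5%, and the 3 PB2 fingers of 60.3%, 57.1% and 58.7%. All 6 have the same spacing of cysteines and histidines, because the pattern used to pick them required it. At the last position of the codons, which often leaves the amino acid unchanged, the GC content was 23.8%, 14.3% and 19.0% in the zygote fingers and 85.7%, 57.1% and 66.7% in the PB2 fingers. At the middle position, which most often sets the kind of amino acid, the ranges overlapped, with 38.1% to 47.6% and 38.1% to 57.1%.

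The numbered Zfp genes leaned towards the zygote, while all genes compared leaned towards PB2. Their median level was 13.6 TPM in PB2 against 14.4 TPM in the zygote, and their summed level was 5958 TPM in PB2 against 7361.7 TPM in the zygote. The log2 ratio, log2((PB2 TPM + 1)/(zygote TPM + 1)), is positive where PB2 was higher, and it understates the difference for genes of low TPM. It ran from -3.13 to 2.81 over the 155 genes, with a median of -0.32 and quartiles of -1.0 and 0.53. Over the 7888 genes of the table with at least 5 TPM in either library its median was 0.20, with quartiles of -0.41 and 0.87. By 2-fold or more, PB2 was higher for 20 of the 155 genes (12.9%), against 20.7% of all genes compared. In the other direction, 39 (25.2%) were higher by 2-fold or more in the zygote, against 8.39% of all genes compared. The 96 others lay within 2-fold, and in all 93 were higher in the zygote and 62 in PB2. Because the median of all genes was itself shifted by 0.20, the ratios were also centred on it, which gave 17 genes higher in PB2 and 50 higher in the zygote among the 155. Over all genes compared the centred counts were 1211 (15.4%) and 992 (12.6%), in place of 1636 and 662.

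**Figure D1:**
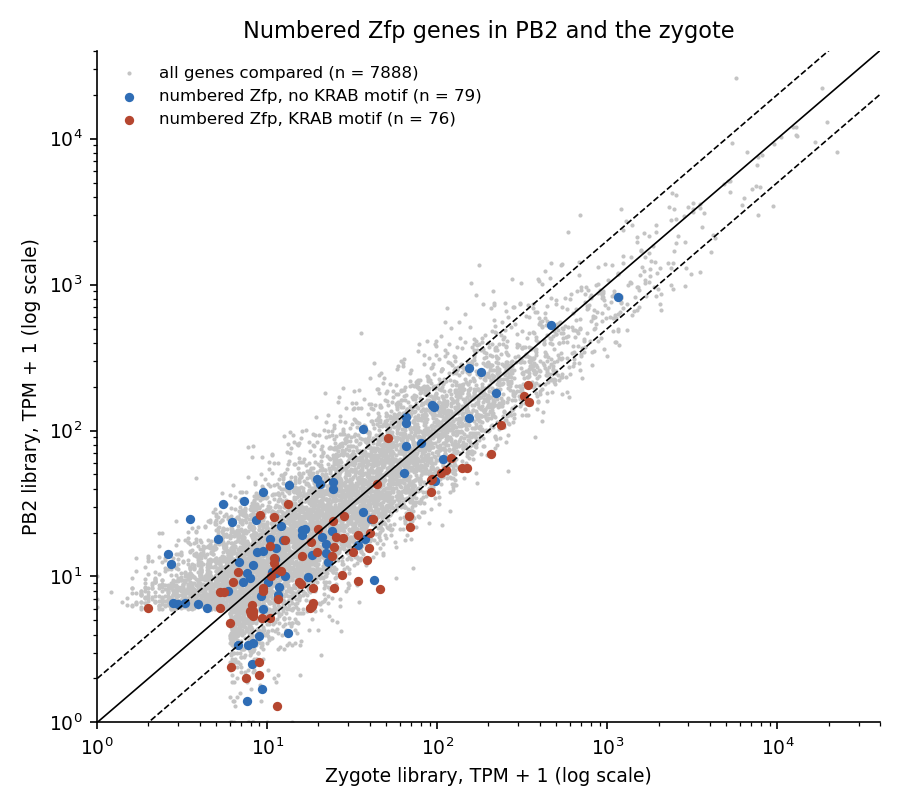
TPM + 1 in the zygote library (x axis) against TPM + 1 in the PB2 library (y axis), both on log scales, for 7888 genes with at least 5 TPM in either library (grey), the 76 numbered Zfp genes with a KRAB-box motif (red) and the 79 without (blue). The solid line marks equal values and the dashed lines 2-fold differences, and of the red points 28 lie at least 2-fold towards the zygote and 4 towards PB2.

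The genes were selected on their TPM, and a gene that passed 5 TPM in 1 library alone had to differ to some degree. Of the 155 genes, 119 had at least 5 TPM in both libraries, 21 passed in the zygote alone and 15 in PB2 alone. Among the 119, 11 (9.24%) were higher by 2-fold or more in PB2 and 26 (21.8%) in the zygote, where 15.8% and 7.17% of all 6496 genes that passed in both libraries were. Without any filter, PB2 was higher by 2-fold or more for 27 of the 251 numbered Zfp rows and the zygote for 47, against 17.8% and 7.65% of all 11262 rows. The median log2 ratio of those 251 rows was -0.07, nearer to 0 than that of the 155. The 96 rows under the threshold had a median of 0.17, close to the 0.20 of all 11262 rows. Of them, 7 (7.29%) were higher by 2-fold or more in PB2 and 8 (8.33%) in the zygote. Shares over all genes under the threshold are not given here. Just inside the threshold stood Zfp964 (5.0 TPM in the zygote, 3.8 TPM in PB2), Zfp248 (5.1 TPM in the zygote, 1.4 TPM in PB2) and Zfp341 (3.4 TPM in the zygote, 5.1 TPM in PB2). Just outside it stood Zfp760 (4.8 TPM in the zygote, 1.6 TPM in PB2), Zfp142 (1.5 TPM in the zygote, 4.7 TPM in PB2) and Zfp90 (4.6 TPM in the zygote, 3.0 TPM in PB2). At exactly 2-fold on the log2 ratio scale, and counted, were Zfp959 (9.4 TPM in the zygote, 4.2 TPM in PB2) and Zfp609 (2.3 TPM in the zygote, 5.6 TPM in PB2).

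The genes in which a KRAB-box pattern was found leaned towards the zygote. A KRAB A-box pattern was found in the translated coding sequence of 76 of the 155 genes, and their summed level was 1903.8 TPM in PB2 against 3500 TPM in the zygote. Of these 76 genes, 60 were higher in the zygote, 28 (36.8%) of them at least 2-fold, and 4 (5.26%) were higher by 2-fold or more in PB2. Their median log2 ratio was -0.75. The 79 genes without the pattern summed to 4054.2 TPM in PB2 against 3861.7 TPM in the zygote. Of these, 16 (20.3%) were higher by 2-fold or more in PB2 and 11 (13.9%) in the zygote, shares close to, and above, those of all genes compared (20.7% and 8.39%), and after centring 13 and 14. Their median log2 ratio was 0.31, 0.11 after centring and -0.01 after a trend on transcript length was subtracted. The 4 KRAB genes higher by 2-fold or more in PB2, named after their values were seen, were Zfp87, Zfp612 (8.1 TPM in the zygote, 25.4 TPM in PB2), Zfp866 (12.2 TPM in the zygote, 30.5 TPM in PB2) and Zfp46 (9.9 TPM in the zygote, 24.6 TPM in PB2). The pattern is strict, so the 79 genes without it can include genes with a KRAB box, and the 2 sets are not a clean split. It missed Zfp57, whose KRAB box is known, and when both parts of the pattern were required 24 genes remained, with a median of -0.49 against -0.29 for the others. With 5 TPM in both libraries, 22 of 59 KRAB genes were higher by 2-fold or more in the zygote and 3 in PB2, while of 60 without the pattern 4 were higher in the zygote and 8 in PB2.

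**Figure D2:**
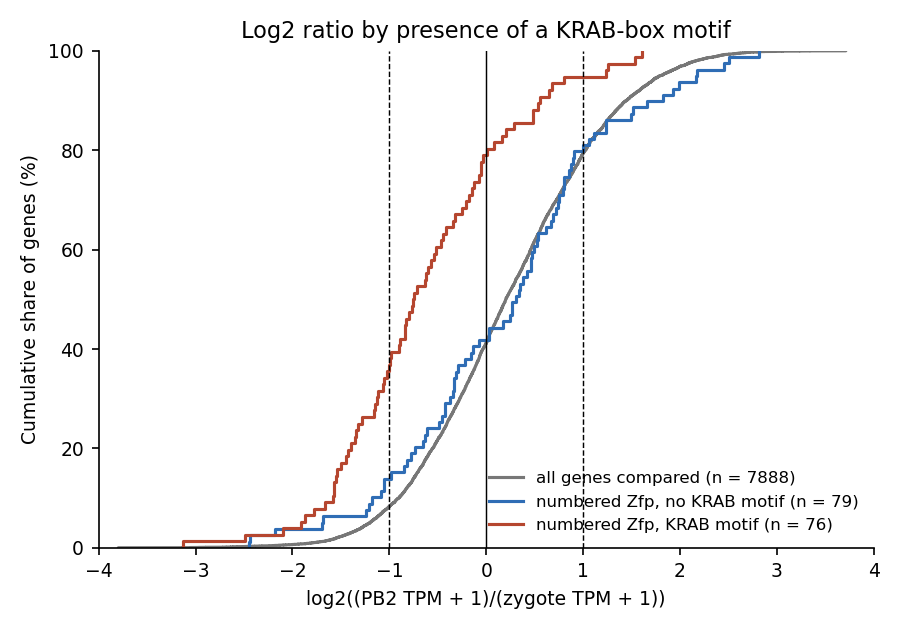
Cumulative share of genes in percent (y axis) by log2((PB2 TPM + 1)/(zygote TPM + 1)) (x axis) for all 7888 genes compared (grey), 76 numbered Zfp genes with a KRAB-box motif (red) and 79 without (blue). Dashed lines mark 2-fold, and the red curve lies to the left with a median of -0.75, against 0.31 for the blue and 0.20 for the grey curve.

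The number of C2H2 fingers varied with the log2 ratio as well. Over the 6 genes in which no finger pattern was found the median log2 ratio was 0.70, over the 22 with 1 to 4 fingers 0.01, over the 42 with 5 to 9 fingers -0.28, over the 52 with 10 to 14 fingers -0.45 and over the 33 with 15 or more -0.57. Genes with many fingers also had a lower transcript GC content, from a median of 50% without fingers to 40.2% with 15 or more, so finger number and GC content cannot be told apart here.

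The largest log2 ratios towards the zygote belonged to genes of low or middling TPM. Zfp977 had 10.4 TPM in the zygote against 0.3 TPM in PB2, a log2 ratio of -3.13. On TPM itself that is 34.7-fold, and rounding to 1 decimal alone allows 29.6-fold to 41.8-fold. Zfp433 had 44.9 TPM in the zygote against 7.2 TPM in PB2 (log2 ratio -2.48). This was the largest difference among genes with over 40 TPM, followed by Zfp931 with 41.6 TPM in the zygote against 8.4 TPM in PB2 (log2 ratio -2.18) and, somewhat lower in TPM, by Zfp759 with 33.0 and 8.3 TPM (log2 ratio -1.87). The 6 others of the 10 had 6.5 to 8.3 TPM in the zygote and 0.4 to 1.6 TPM in PB2. These were Zfp935 (log2 ratio -2.45), Zfp825 (log2 ratio -2.44), Zfp788 (log2 ratio -2.10), Zfp184 (log2 ratio -1.91), Zfp993 (log2 ratio -1.78) and Zfp62 (log2 ratio -1.70). In PB2, 3 of the 155 genes had under 1 TPM, namely Zfp977, Zfp825 and Zfp935.

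Towards PB2, the largest log2 ratios belonged to genes without a KRAB pattern, with Zfp87 as the exception among the 10. Zfp687, which forms a transcriptional coregulator complex with Zfp592 and Zfp532, had 2.5 TPM in the zygote against 23.6 TPM in PB2 (log2 ratio 2.81). Zfp839 had 4.5 TPM in the zygote against 30.3 TPM in PB2 (log2 ratio 2.51). Zfp710 had 1.6 TPM in the zygote against 13.2 TPM in PB2 (log2 ratio 2.45). The next were Zfp428, at 1.7 TPM in the zygote against 11.2 TPM in PB2, and Zfp553, at 6.3 and 31.8 TPM, with log2 ratios of 2.18 and 2.17. Zfp541, a gene of meiotic germ cells, had 8.5 TPM in the zygote against 36.7 TPM in PB2 (log2 ratio 1.99). The remaining 4 were Zfp574 (5.2 TPM in the zygote, 22.6 TPM in PB2), Zfp703 (4.1 TPM in the zygote, 17.1 TPM in PB2), Zfp513 (12.4 TPM in the zygote, 41.4 TPM in PB2) and Zfp87 (1.0 TPM in the zygote, 5.1 TPM in PB2), with log2 ratios from 1.93 down to 1.61.

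**Figure D3:**
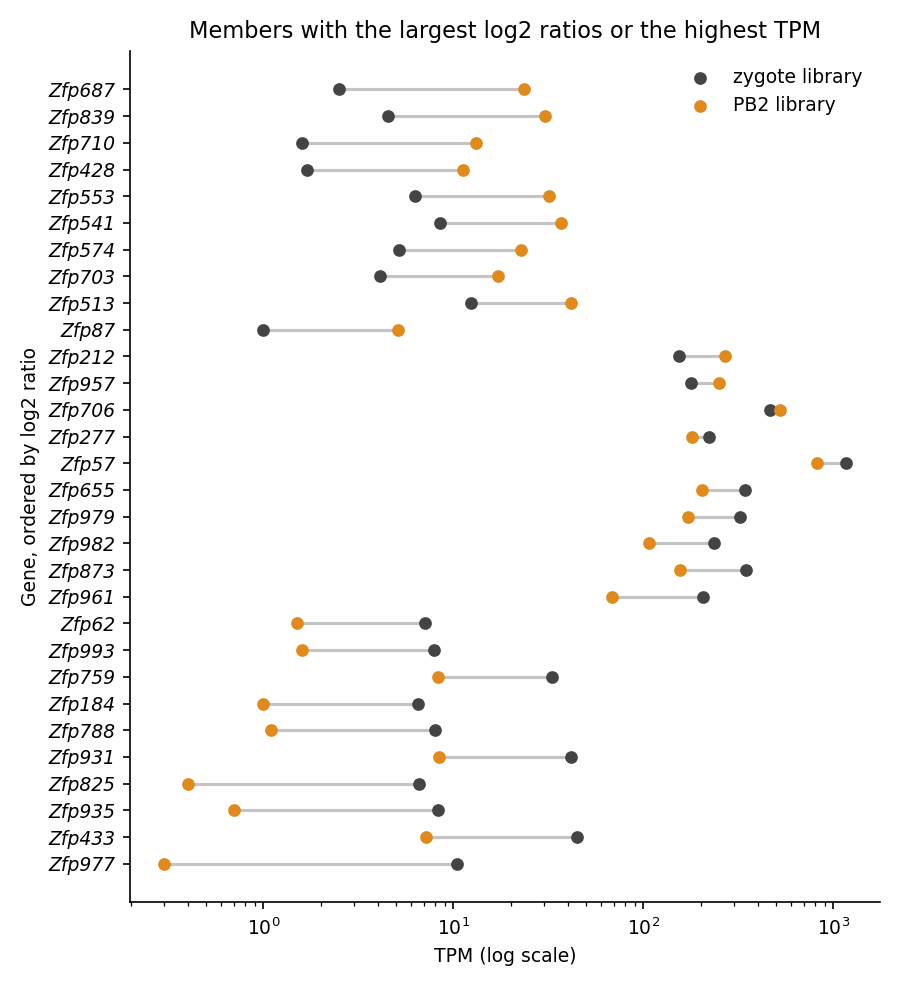
TPM on a log scale (x axis) in the zygote library (dark points) and the PB2 library (orange points) of the 10 numbered Zfp genes with the most extreme log2 ratios on either side and the 10 with the highest TPM, ordered by log2 ratio (y axis). The widest gap is that of Zfp977, from 10.4 TPM to 0.3 TPM. Among the 10 most abundant genes the 2 libraries lie closer together, the others having been picked for their large ratios.

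Of the 10 most abundant numbered Zfp genes, 3 (30%) were higher by 2-fold or more in the zygote and 0 in PB2, against 25.2% and 12.9% of the 155 genes. Zfp57, which keeps methylation at imprinted loci after fertilisation, had 1160.8 TPM in the zygote against 825.0 TPM in PB2, a log2 ratio of -0.49. It ranked 117 in the zygote and 145 in PB2 among the 11262 rows. Zfp706 had 464.1 TPM in the zygote against 523.7 TPM in PB2. Of the other 8, Zfp212 (153.4 TPM in the zygote, 269.0 TPM in PB2) and Zfp957 (178.6 TPM in the zygote, 251.4 TPM in PB2) were higher in PB2, both within 2-fold. Zfp655 (340.9 TPM in the zygote, 202.5 TPM in PB2), Zfp979 (321.9 TPM in the zygote, 171.8 TPM in PB2) and Zfp277 (220.2 TPM in the zygote, 179.5 TPM in PB2) were higher in the zygote, within 2-fold. Zfp873 (347.3 TPM in the zygote, 155.9 TPM in PB2), Zfp982 (236.0 TPM in the zygote, 107.5 TPM in PB2) and Zfp961 (205.4 TPM in the zygote, 68.4 TPM in PB2) were higher by 2-fold or more in the zygote, and all 3 hold the KRAB pattern. Over the 22 genes that reached 100 TPM in the higher library the median log2 ratio was -0.62, with 1 gene (4.55%) higher by 2-fold or more in PB2 and 7 (31.8%) in the zygote. The 1641 genes of all kinds at that level had a median of 0.02, with 300 (18.3%) higher by 2-fold or more in PB2 and 192 (11.7%) in the zygote. The lean was thus also seen where rounding matters little.

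Zfp genes with known roles in silencing were present on both sides. Zfp445, the other known keeper of imprints beside Zfp57, had 14.8 TPM in the zygote against 7.9 TPM in PB2 (log2 ratio -0.83). Zfp932, which represses endogenous retroviruses, had 68.0 TPM in the zygote against 20.8 TPM in PB2 (log2 ratio -1.66). Zfp809, which silences proviruses of murine leukaemia virus, was at 8.5 TPM in the zygote against 7.0 TPM in PB2. Zfp568, a repressor of a placental transcript of Igf2, was at 9.4 TPM in the zygote against 15.3 TPM in PB2, and Zfp819 at 4.3 TPM in the zygote against 6.8 TPM in PB2. Zfp638, which silences unintegrated retroviral DNA, had 21.1 TPM in the zygote against 13.5 TPM in PB2. Of these 6 genes, 4 were higher in the zygote and 2 in PB2, and Zfp932 alone passed 2-fold. Zfp57, described above and not among the 6, was higher in the zygote within 2-fold (log2 ratio -0.49). Of all genes compared, 41.1% were higher in the zygote by any amount and 8.39% by 2-fold or more.

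Members known as activators or as regulators of RNA and protein mostly lay within 2-fold. Zfp592 (23.4 TPM in the zygote, 43.1 TPM in PB2, log2 ratio 0.85) and Zfp532 (8.4 TPM in the zygote, 13.9 TPM in PB2, log2 ratio 0.66) had higher values in PB2, as did their partner Zfp687. Zfp143, an activator that binds many promoters, had 33.1 TPM in the zygote against 15.4 TPM in PB2 (log2 ratio -1.06). Zfp598, a ubiquitin ligase that marks stalled ribosomes, was at 9.4 TPM in the zygote against 17.2 TPM in PB2. Zfp207, a spindle and kinetochore protein, was at 63.1 TPM in the zygote against 49.9 TPM in PB2, and Zfp830, which early embryos need to survive, at 153.0 TPM in the zygote against 121.4 TPM in PB2. Zfp281, a regulator of pluripotency genes, had 11.8 TPM in the zygote against 9.1 TPM in PB2, and Zfp410, an activator of the gene for the remodeller Chd4, had 9.6 TPM in the zygote against 9.8 TPM in PB2. Zfp451, a SUMO ligase, was at 15 TPM in the zygote and at 18.3 TPM in PB2, and Zfp91, a ubiquitin ligase, at 10.3 TPM in the zygote and at 14.6 TPM in PB2. Another 4 genes listed for a known role, whatever its kind, were also within 2-fold. They were Zfp148 (19.9 TPM in the zygote, 17.7 TPM in PB2), Zfp644 (6.9 TPM in the zygote, 8.8 TPM in PB2), Zfp106 (15.7 TPM in the zygote, 20.3 TPM in PB2) and Zfp318 (11.3 TPM in the zygote, 16.7 TPM in PB2). Of the 35 genes listed for a known role, 31 were in the table and 23 passed 5 TPM. Among the 23 the median log2 ratio was 0.27, with 2 genes (8.70%) higher by 2-fold or more in PB2 (Zfp687 and Zfp541) and 2 (8.70%) in the zygote (Zfp932 and Zfp143), against 20.7% and 8.39% of all genes compared. Zfp42, known as Rex1 and as a marker of pluripotency, was under the threshold with 1.4 TPM in the zygote against 1.8 TPM in PB2.

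The partners through which KRAB proteins act did not share the lean of the KRAB genes. Trim28, the corepressor itself, had 24.3 TPM in the zygote against 91.4 TPM in PB2, a log2 ratio of 1.87. Setdb1 had 43.9 TPM in the zygote against 53.6 TPM in PB2 (log2 ratio 0.28). Of 25 partner genes listed, 23 were compared, 4 (17.4%) were higher by 2-fold or more in PB2 and 1 (4.35%) in the zygote, against 20.7% and 8.39% of all genes compared. None of these 4 passed 2-fold once the GC trend of all genes was subtracted (Trim28 0.79, Daxx 0.65, Uhrf1 0.42 and Morc2a 0.81 on the log2 scale), and Uhrf1 (0.85) and Morc2a (0.87) did not pass after centring. The median log2 ratio of the list was 0.19, close to the 0.20 of all genes compared, and -0.01 after centring and -0.11 after a trend on transcript length was subtracted. The other 3 higher in PB2 were Daxx, a chaperone of the histone variant H3.3, at 8.8 TPM in the zygote against 27.4 TPM in PB2, Morc2a at 1.9 TPM in the zygote against 5.1 TPM in PB2, and Uhrf1, which brings Dnmt1 to hemimethylated DNA, at 169.7 TPM in the zygote against 353.1 TPM in PB2. Morc3 had 35 TPM in the zygote against 15.1 TPM in PB2 (log2 ratio -1.16). Dnmt1, the maintenance DNA methyltransferase, was at 356.1 TPM in the zygote against 358.9 TPM in PB2, and the HUSH subunit Mphosph8 at 561.1 TPM in the zygote against 802.6 TPM in PB2.

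Across all genes, GC-rich transcripts had higher log2 ratios, and the median GC content of the numbered Zfp genes was below that of all genes. Their longest coding transcripts had a median GC content of 43.1%, against 48.9% over all genes compared, and those with a KRAB pattern 40.2%. Spearman's rho between GC content and log2 ratio was 0.46 across 7873 genes and 0.70 across the 155, 0.42 across the 76 with the KRAB pattern and 0.77 across the 79 without. These are correlations across genes of the same 2 libraries, which are not independent replicates. Of the 39 genes higher by 2-fold or more in the zygote, 37 had a GC content under 45%, where 94 of the 155 genes lay. Of the 20 higher in PB2, 17 had 50% or more, where 35 of the 155 lay.

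In classes of like GC content, the median of the Zfp genes lay further towards the zygote than that of all genes under 45% and further towards PB2 at 45% or more. Under 40%, the 50 Zfp genes had a median log2 ratio of -1.08, with 28 higher by 2-fold or more in the zygote and 0 in PB2. The 474 genes of all kinds in that class had a median of -0.43, with 112 (23.6%) higher in the zygote. In this class the 36 genes with the KRAB pattern had a median of -1.04 and the 14 without of -1.15, both far below that of all genes in the class. From 40% to 45% the median was -0.42 over 44 Zfp genes and -0.18 over 1748 genes, and from 45% to 50% it was 0.19 over 26 Zfp genes and 0.08 over 2233 genes. From 50% to 55% it was 0.66 over 15 Zfp genes and 0.52 over 1985 genes. In these 3 classes, in order, the genes with the KRAB pattern had medians of -0.52 (25 genes), -0.06 (12 genes) and 0.16 (3 genes). Those without it had medians of -0.34 (19 genes), 0.40 (14 genes) and 0.70 (12 genes). At 55% or more, where no gene held the KRAB pattern, 13 of 20 Zfp genes (65.0%) and 724 of 1433 genes (50.5%) were higher by 2-fold or more in PB2, with medians of 1.23 and 1.00.

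Subtracting the trend of all genes on GC content moved the medians towards 0, while some single genes moved away from 0. The median of the 155 genes became -0.20, of the KRAB set -0.37 and of the set without the pattern 0.03. After this step 10 genes were higher by 2-fold or more in PB2 and 23 in the zygote, and 93 of the 155 lay below the trend. The shares of all genes past 2-fold after this step are not given here, so these counts have no background beside them. The counts include genes that were within 2-fold before the subtraction. Towards PB2 they were Zfp60 (0.80 before, 1.15 after) and Zfp943 (0.89 before, 1.43 after). Towards the zygote they were Zfp653 (-0.73 before, -1.87 after) and Zfp61 (-0.81 before, -1.36 after). The 10 genes named above for their lean towards the zygote all stayed past 2-fold, among them Zfp977 at -2.74 and Zfp433 at -2.03. Of the 10 towards PB2, 6 stayed past 2-fold, led by Zfp687 at 1.92. The other 4 did not, with Zfp428 at 0.94, Zfp574 at 0.92, Zfp703 at 0.71 and Zfp513 at 0.53. Among the abundant genes Zfp961 stayed past 2-fold at -1.34, while Zfp873 (-0.87) and Zfp982 (-0.68) did not, nor did Zfp143 (-0.98). Of the 4 genes with the KRAB pattern higher in PB2, Zfp87 (1.68), Zfp612 (1.63) and Zfp866 (1.25) stayed past 2-fold and Zfp46 (0.79) did not. Whether amplification of the cDNA had a part in the relation to GC content was not tested.

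**Figure D4:**
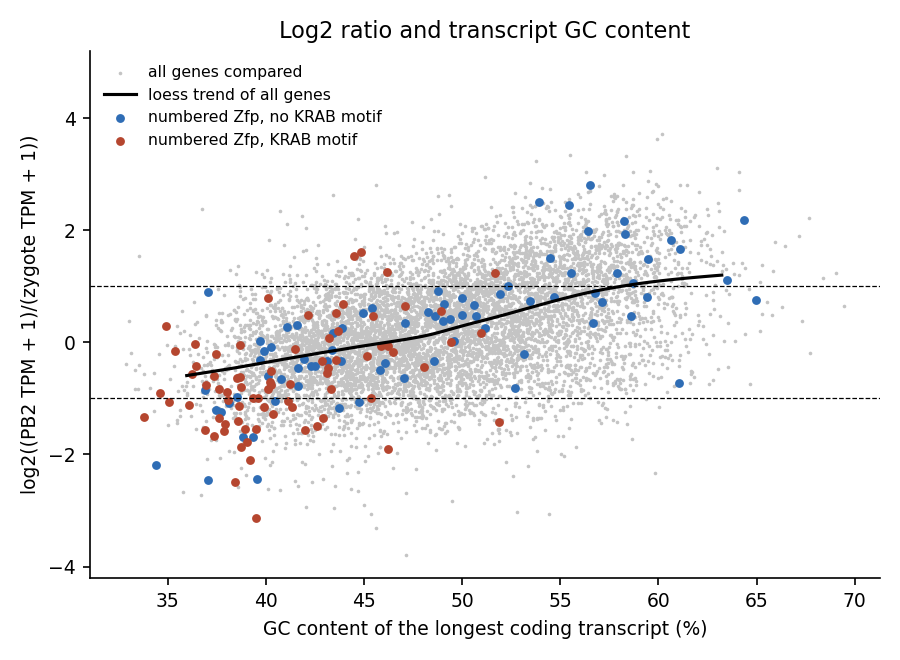
Log2((PB2 TPM + 1)/(zygote TPM + 1)) (y axis) against the GC content of the longest coding transcript in percent (x axis) for all genes compared (grey), numbered Zfp genes with a KRAB-box motif (red) and without (blue), with the loess trend of all genes (black line) and 2-fold differences (dashed lines). Under 40% GC, 28 of 50 Zfp genes lie at or below the lower dashed line and 0 at or above the upper one.

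Position in the genome was compared next, since neighbouring Zfp genes are often copies of each other. With gaps of at most 500 kb between neighbours, 59 of the 155 genes fell into 11 clusters of at least 3 genes (coordinates from GENCODE M21, GRCm38). The clustered genes had a median log2 ratio of -0.46. Of them, 5 (8.47%) were higher by 2-fold or more in PB2 and 13 (22.03%) in the zygote. The 96 genes outside clusters had a median of -0.12, with 15 (15.6%) and 26 (27.08%). Clustered genes thus passed 2-fold less often in both directions. By any amount, 44 of them (74.58%) were higher in the zygote, against 49 (51.04%) outside clusters. The median transcript GC content was 40.2% in clusters and 45.1% outside, and its part in this difference was not tested. Of all genes compared, 20.7% were higher by 2-fold or more in PB2 and 8.39% in the zygote. Chromosome 7 held 36 of the 155 genes and chromosome 17 held 22.

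Some clusters leaned as a block, and others were split. At chr10:81704825-82241280, Zfp433 (44.9 TPM in the zygote, 7.2 TPM in PB2), Zfp873 (347.3 TPM in the zygote, 155.9 TPM in PB2) and Zfp938 (23.6 TPM in the zygote, 7.3 TPM in PB2) were all higher by 2-fold or more in the zygote. Their median transcript GC content was 38.4%. With the GC trend of all genes subtracted, Zfp433 was at -2.03, Zfp873 at -0.87 and Zfp938 at -1.03. The 10 genes at chr17:21008903-22456689 had a median log2 ratio of -0.62, with 9 higher in the zygote and none by 2-fold. Their median GC content was 37.5%, and with the GC trend subtracted they lay on both sides, from -0.53 (Zfp947) to 1.43 (Zfp943). In contrast, 6 of the 8 genes at chr7:24134169-25083492 were higher in PB2, with a median of 0.55 and a median GC content of 51.0%. Over all genes compared, 4630 of 7888 were higher in PB2. None of the 8 held the KRAB pattern, which can miss a KRAB box, as it did in Zfp57. This cluster includes Zfp428 and Zfp574, and Zfp108 with 92.1 TPM in the zygote against 148.6 TPM in PB2. The 8 genes of another chromosome 7 cluster, at chr7:29768552-30107622, were all within 2-fold, with a median of -0.25.

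The cluster at chr17:32965814-33631779 was split. Zfp563 (17.4 TPM in the zygote, 5.3 TPM in PB2), Zfp81 (8.0 TPM in the zygote, 2.9 TPM in PB2) and Zfp472 (36.7 TPM in the zygote, 17.2 TPM in PB2) were higher by 2-fold or more in the zygote. Zfp414, in the same cluster, had 19.5 TPM in the zygote against 41.7 TPM in PB2 (log2 ratio 1.06), and its transcript GC content was 58.7%, against 37.4% to 42.5% for the other 4 genes. With the GC trend subtracted Zfp563 alone of these stayed past 2-fold (-1.16), with Zfp81 at -0.70, Zfp472 at -0.72 and Zfp414 at 0.03. The cluster at chr13:67121660-67755228 was split as well, from Zfp759 with a log2 ratio of -1.87 to Zfp87 with 1.61.

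**Figure D5:**
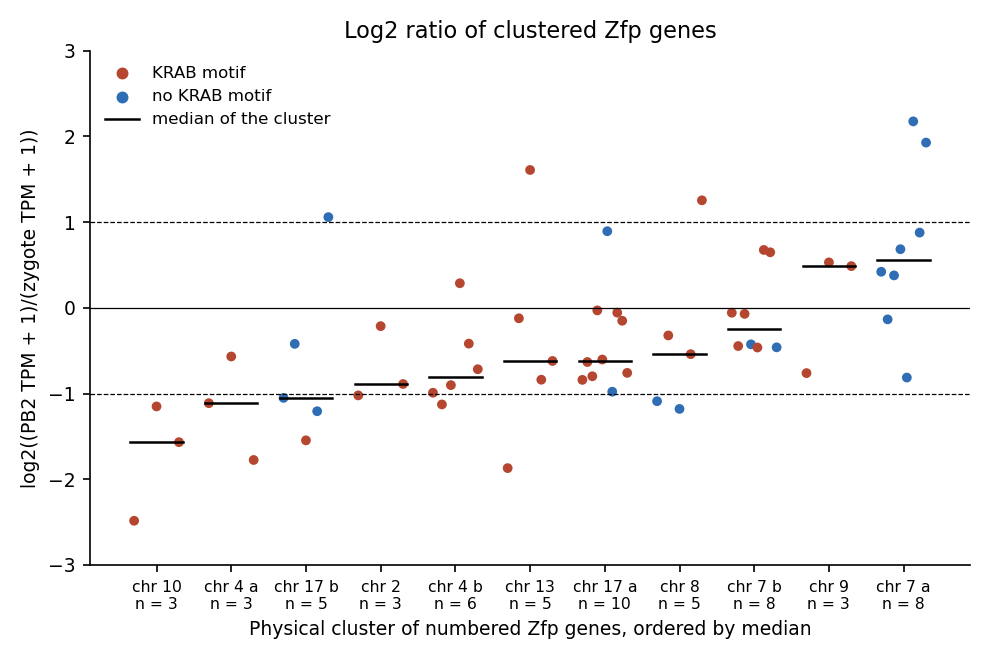
Log2((PB2 TPM + 1)/(zygote TPM + 1)) (y axis) of 59 numbered Zfp genes in 11 physical clusters (x axis, ordered by cluster median, genes in chromosomal order from left to right within a cluster), red with and blue without a KRAB-box motif, with black bars for cluster medians and dashed lines at 2-fold. The chromosome 10 cluster has all 3 genes at or below the lower dashed line, and the cluster chr 7 a, at the right, has 6 of 8 genes above 0.

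Genes with near-identical copies are uncertain, since reads of one can be counted for another or left out. Of the 155 genes, 24 shared over 20% of the 50-base words of their transcript with another gene, 18 of them with the KRAB pattern, and 64 shared none. Among the 39 genes higher by 2-fold or more in the zygote 10 were of this kind, and among the 20 higher in PB2 1 was. Zfp935 shared 100% and Zfp433 94.1%, so their values may belong in part to other genes, as may those of Zfp993 (86.8%), Zfp932 (45.2%), Zfp825 (28.7%), Zfp931 (22.2%), Zfp979 (24.6%) and Zfp414 (24.7%). The largest share with any single gene was 13.9% for Zfp825, 9.6% for Zfp931 and 19.6% for Zfp979. Zfp960 and Zfp97 share most of their words with each other and had near-equal values, 37.8 and 38.8 TPM in the zygote and 12 and 14.6 TPM in PB2. Without the 24 genes, 19 genes were higher by 2-fold or more in PB2 and 29 in the zygote, and the median log2 ratio was -0.15.

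Both libraries held the transcripts of an egg. All 11 oocyte and zygote markers listed were in the table with at least 62.7 TPM in each library, and they summed to 28924.5 TPM in PB2 against 43007 TPM in the zygote. Dppa3 weighs most in these sums, with 8070.2 TPM in PB2 against 22561.9 TPM in the zygote. The median log2 ratio of the 11 was 0.14, with 3 higher by 2-fold or more in PB2 and 1 in the zygote, against 20.7% and 8.39% of all genes compared. Of 10 cumulus and granulosa markers 3 were in the table, with 78.9 TPM in PB2 against 80.7 TPM in the zygote, nearly all of it Cyp19a1. Of 5 sperm markers Prm2 was in the table, at 22 TPM in PB2 against 19.8 TPM in the zygote. The other listed markers were not analysed here, and the part of such cells in the values above was not tested.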

How the data were processed

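RNA-seq values of 1 PB2 library and 1 zygote library were analysed. The authors deposited TPM rounded to 1 decimal, with no counts, so depth is unknown. According to the submitters' processing notes and the paper's methods, base calls came from CASAVA, reads were aligned with HISAT2 2.0.4, counted per gene with HTSeq 0.6.1p1 on an Ensembl annotation and normalized with DESeq2 1.18.1. The notes list the builds OryCun2.0 and GRCm38, and the identifiers are mouse Ensembl identifiers. How TPM was derived is not given in the sources used here. PB2 values summed to 89.8% and zygote values to 92.7% of a complete TPM library, so some genes were not analysed here. The column named for 1 cell was taken as the zygote, the only other sample, and 0 columns were left over.

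Members were the rows named Zfp plus a number with at least 5 TPM in either library. The members, lists and tests were chosen with earlier results of these data known. Log2 ratios used a pseudocount of 1, and a gene was counted from 2-fold. Named genes were the 10 largest ratios in each direction, the 10 highest TPM, 3 on each side of the threshold, members with a known role, KRAB partners and genes in clusters. The fingers shown are from the most extreme members with at least 5 fingers of the one spacing that spans 63 bases, narrower than the C2H2 pattern behind the finger numbers. GC content, positions, KRAB and C2H2 patterns and shared 50-base words came from GENCODE M21 transcripts and their translations, in place of the RefSeq proteins first intended. All 155 members were found in GENCODE M21. Trends were loess fits with a span of 0.3. Functions were tested on simulated data with a known GC slope and known raised genes. The scripts ran under Python 3.11.15 with statsmodels 0.14.6, Biopython 1.88, pandas 2.3.3, matplotlib 3.10.9, scipy 1.17.1 and numpy 2.4.6. The alternatives were other pseudocounts, filters, scalings, fold thresholds and KRAB patterns and removal of GC or length trends. Leaving out genes with shared words, and reading the KRAB pattern in the longest transcript alone, were added after the data were seen.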

Additional observations from a re-analysis of the deposited data

How the results depend on the processing

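No paired analysis was possible because PB2 and the zygote have 1 library each. Of 81 values recomputed for the sets of genes under the alternatives, 69 stayed close, and 4 changed sign. The count of 20 numbered Zfp genes at least 2-fold higher in PB2 became 10 with the GC trend subtracted, 36 at 1.5-fold and 5 at 4-fold, and the count of 39 higher in the zygote became 23, 62 and 6. The median log2 ratio of the 155 genes, -0.32, became -0.52 after centring and -0.65 with the length trend subtracted, and its distance from all genes, -0.52, became -0.21 with the GC trend subtracted. The median of the KRAB set, -0.75, became -0.37 with the GC trend and -1.12 with the length trend subtracted. The median of the set without the KRAB pattern, 0.31, reversed to -0.29 when both parts of the pattern were required, which moved KRAB genes of 1 part into it, and became -0.01 with the length trend subtracted. The median of the KRAB partners, 0.19, became -0.01 after centring and -0.11 with the length trend subtracted. Among single genes, 678 values stayed within 0.5 on the log2 scale, 50 moved further and 0 of the genes at least 2-fold apart changed sign. The limits are 1 library of each kind, TPM without depth, rounding that makes ratios under 1 TPM coarse, and near-identical copies among the KRAB genes.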

Other observations

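Zinc finger genes outside the numbered Zfp names were also compared. The 26 other genes with a KRAB pattern had a median log2 ratio of -0.80, with 9 (34.6%) at least 2-fold higher in the zygote and 1 (3.85%) in PB2, against 8.39% and 20.7% of all genes compared. Among them, named after their values were seen, Zfp955a had 376.7 TPM in the zygote against 89.4 TPM in PB2 (log2 ratio -2.06), its neighbour in name Zfp955b had 482.3 TPM in the zygote against 295.5 TPM in PB2 (log2 ratio -0.70), and AI987944 had 801.6 TPM in the zygote against 558.5 TPM in PB2 (log2 ratio -0.52). Gm15446, which shares 42.6% of the words of Zfp932, had 124.7 TPM in the zygote against 61.1 TPM in PB2 (log2 ratio -1.02).

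The 94 other genes with at least 3 C2H2 fingers and no KRAB pattern had a median log2 ratio of 0.54, with 31 (33.0%) at least 2-fold higher in PB2 and 9 (9.57%) in the zygote. The 21 Zbtb genes, which pair a BTB domain with zinc fingers, had a median of 0.64, with 6 (28.6%) in PB2 and 1 (4.76%) in the zygote. The 10 Zc3h genes, whose fingers bind RNA, had a median of 0.92, with 5 in PB2 and 0 in the zygote. These counts stand beside the same 20.7% and 8.39% of all genes, and in sets this small each gene weighs several percent.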
